A study of Homo sapiens with 2 samples.

Results

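The cell-cycle genes described here are cyclins, cyclin-dependent kinases (CDKs) and the proteins that restrain them, 56 genes chosen by name. They were read in Huh7, an established human hepatocellular carcinoma line, in a culture stably transduced by lentivirus with a short hairpin RNA (shRNA) that targets CD24, a glycoprotein of the cell surface, and in a culture with a non-target control hairpin. Both cultures were the same line, grown in DMEM with serum and antibiotics, and 1 microarray of total RNA was made of each. Whether either culture was a pool or a clone is not given in the sources used here. Probe sets whose platform annotation names 1 member only covered 54 of the 56 genes, with 133 of 41091 probe sets, out of 19775 genes in all. CDKN2C and BTG2 had no such probe set in the annotation used and were not analysed here.

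Cyclins bind and switch on CDKs, and the pairs carry a cell through the phases of division. D-type cyclins with CDK4 or CDK6 start the passage through G1, cyclin E and cyclin A with CDK2 take it through S phase, and cyclin B with CDK1 drives mitosis. Inhibitors of the INK4 and CIP/KIP families, the retinoblastoma (pocket) proteins and stress-induced proteins such as the GADD45 family hold the cycle back. Hepatocytes of the adult liver are mostly quiescent, whereas Huh7 cells divide continuously.

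The deposited table held, for each probe set, log2 values centred on the 2 arrays, so the value in one array is the negative of that in the other and the level itself is not in the table. The quantity given for a gene is the log2 difference, CD24 shRNA minus control, averaged over its probe sets. With 1 array per group no difference has a replicate check, no test or p-value exists, and precision is limited by the number of arrays. The SD given is over the probe sets of a gene and does not cover the spread between cultures. Pooled over the 10523 genes with several probe sets it was 0.27. All 6 probe sets of CD24, the hairpin's target, were lower with CD24 shRNA, with centred means of -0.68 in the CD24 shRNA array and 0.68 in the control array. In 41.6% of the table's probe sets the exact pair of values was shared by 3 or more probe sets, and this held for 30 of the 133 member probe sets. It held for 1 of the 7 CDK6 probe sets and for 0 of those of PLK2, CDKN2B, GADD45A, GADD45B, CDKN1A and SFN. Scaling the arrays on their hybridisation controls would add 0.11 to every difference, and so to the median of all genes, and differences are given relative to that median. Because each culture was read in bulk, a different share of cells in a phase and a different amount of RNA per cell cannot be told apart.

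Few cell-cycle genes differed by much, and the ones that did were brakes and CDK6. At a 2-fold difference 3 of 54 members were higher with CD24 shRNA, against 0.632% of all genes, and 0 were lower, against 0.485% of all genes. The 3 were PLK2, CDKN2B and GADD45A. At 1.5-fold, GADD45B and CDK6 joined them, 5 of 54 members against 2.63% of all genes, and SFN was the 1 member lower, against 2.38% of all genes. The median over the 54 members was 0.04, against 0 over all genes, and 39 of the 54 lay within the pooled SD of 0 in either direction. The share within it was 72.2% of members and 76.0% of all genes. Of the 41 members with several probe sets, 18 had all of them on 1 side of 0. The same count was not made over all genes, so it is a description only. In the plot of every member the means of the cyclins and CDKs other than CDK6 lie between -0.24 (CCNT1) and 0.43 (CDK8). CDK6 averaged 0.61, and its probe sets ran from -0.42 to 1.60. The means of the stress-linked brakes spread more widely.

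**Figure D1:**
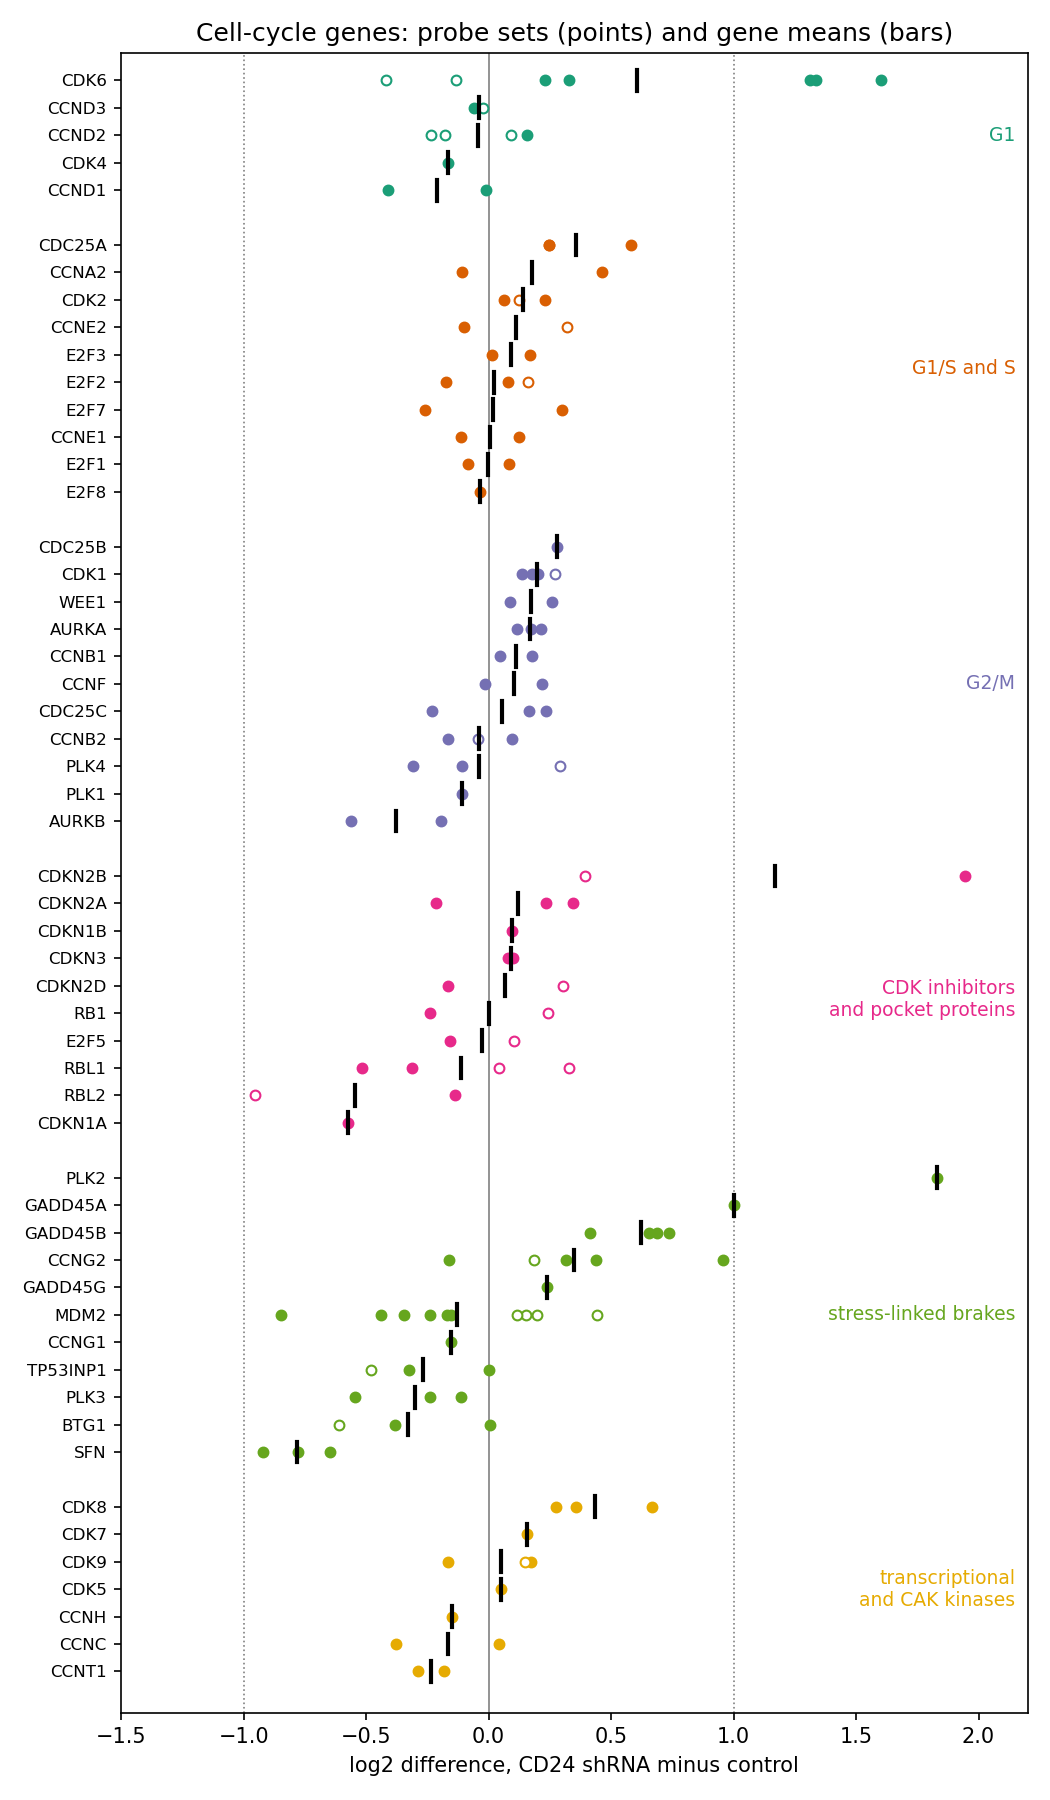
Log2 difference (CD24 shRNA minus control, horizontal axis) of each probe set (points) and the mean of each gene (black bars) for the 54 measured cell-cycle genes, by group. Open points are probe sets whose dimmer array was placed below a log2 value of 4, and dotted lines mark a 2-fold difference. PLK2, CDKN2B and GADD45A reach the upper line at 1.83, 1.17 and 1.00, and SFN is the lowest gene at -0.78.

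Of the 6 members past 1.5-fold, 4 were stress-linked brakes. Damage or other stress signals are known to induce genes of this group, and most of them slow or stop division. PLK2, a polo-like kinase of the centrosome, had a centred value of 0.92 in the CD24 shRNA array, against -0.92 in the control array. That difference of 1.83 is 3.56-fold higher on 1 probe set and ranked 27 from the highest of 19775 genes. GADD45A, a growth arrest and DNA damage protein, stood at 0.50 with CD24 shRNA, against -0.50 in the control. Its difference of 1.002, on 1 probe set, ranked 125 from the highest, just past the 2-fold line. GADD45B, its paralog, was 1.54-fold higher on 4 probe sets that all lay above 0 (0.62 ± 0.14, SD, 4 probe sets, range 0.41 to 0.74). Its centred mean was 0.31 in the CD24 shRNA array, against -0.31 in the control array. GADD45G, the third paralog, differed by 0.24 on 1 probe set, less than the pooled SD. All 3 GADD45 genes therefore lay above 0, in the order GADD45A, GADD45B and GADD45G.

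On the other side lay SFN (14-3-3 sigma), which holds cyclin B and CDK1 in the cytoplasm. Its centred mean was -0.39 in the CD24 shRNA array, against 0.39 in the control array, 1.72-fold lower (-0.78 ± 0.14, SD, 3 probe sets, range -0.92 to -0.65). It ranked 217 from the lowest gene. PLK3, a stress-responsive polo-like kinase, lay at -0.30 ± 0.22 (SD, 3 probe sets), below 0 on all 3, and so opposite to PLK2. In 1 of the 3 the pair of values was shared by 7 probe sets, and without it PLK3 averaged -0.33. BTG1, an antiproliferative protein, lay at -0.33 ± 0.31 (SD, 3 probe sets, range -0.61 to 0.01). TP53INP1, a stress-induced nuclear protein, lay at -0.27 ± 0.24 (SD, 3 probe sets, 1 of them tied between the arrays). In each gene the lowest probe set, at -0.61 and -0.48, had its dimmer array placed below a log2 value of 4. Without it BTG1 averaged -0.19 and TP53INP1 -0.16, each less than the pooled SD in size. The G-type cyclins, which are linked to growth arrest, went apart, with CCNG2 at 0.35 ± 0.41 (SD, 5 probe sets, 4 above 0) and CCNG1 at -0.15 on 1 probe set. MDM2, a ubiquitin ligase, is listed in this group but is not itself a brake. It averaged -0.13 ± 0.37 (SD, 10 probe sets), from -0.85 to 0.44. The 4 MDM2 probe sets above 0 were the 4 whose dimmer array was placed below 4 on the log2 scale, near the background, and the other 6 averaged -0.37. Of the 10, 5 had a pair of values shared by 3 or more probe sets, and without those 5 MDM2 averaged -0.22. Over the 11 measured genes of this group 5 lay above 0 and 6 below. The median, which is the value of MDM2, was -0.13 against 0 over all genes. Of the 11, 4 lay within the pooled SD (36.4%, against 76.0% of all genes).

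Promoter sequences are shown for PLK2, CDKN2B and GADD45B, which are among the members with the largest positive differences, and for SFN, the member with the lowest value. Each is the RefSeq window from 250 bases before to 50 after the start of the gene (GRCh38.p14), written from 5′ to 3′ along the gene. Capitals mark the motifs searched on both strands. These were the CHR element of mitotic genes (TTTGAA, with the variant form TTCGAA), the E2F element (TTCCCGC, with the variant form TTGGCGC and the further form TTCGCGC), and the CCAAT box, none of which contains another. The windows are chr5:58460037-58460336 (minus strand) for PLK2, chr9:22009256-22009555 (minus strand) for CDKN2B, chr19:2475877-2476176 (plus strand) for GADD45B and chr1:26862899-26863198 (plus strand) for SFN.
PLK2: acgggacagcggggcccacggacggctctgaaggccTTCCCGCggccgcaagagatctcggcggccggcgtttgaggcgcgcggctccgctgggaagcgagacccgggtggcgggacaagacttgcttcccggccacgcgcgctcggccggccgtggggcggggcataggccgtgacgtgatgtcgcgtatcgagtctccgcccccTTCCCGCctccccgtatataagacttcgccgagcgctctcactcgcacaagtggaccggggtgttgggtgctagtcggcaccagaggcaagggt
CDKN2B: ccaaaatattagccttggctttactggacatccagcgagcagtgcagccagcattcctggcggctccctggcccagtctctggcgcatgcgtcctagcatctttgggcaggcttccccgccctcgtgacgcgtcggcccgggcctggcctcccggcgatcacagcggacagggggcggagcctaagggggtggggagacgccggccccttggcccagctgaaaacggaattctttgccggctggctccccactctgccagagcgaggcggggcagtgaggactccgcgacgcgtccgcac
GADD45B: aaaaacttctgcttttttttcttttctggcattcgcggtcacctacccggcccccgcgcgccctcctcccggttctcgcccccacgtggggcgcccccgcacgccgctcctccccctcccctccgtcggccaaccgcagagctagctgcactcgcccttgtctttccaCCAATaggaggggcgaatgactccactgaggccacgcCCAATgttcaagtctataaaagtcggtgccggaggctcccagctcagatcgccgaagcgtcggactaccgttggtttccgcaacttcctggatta
SFN: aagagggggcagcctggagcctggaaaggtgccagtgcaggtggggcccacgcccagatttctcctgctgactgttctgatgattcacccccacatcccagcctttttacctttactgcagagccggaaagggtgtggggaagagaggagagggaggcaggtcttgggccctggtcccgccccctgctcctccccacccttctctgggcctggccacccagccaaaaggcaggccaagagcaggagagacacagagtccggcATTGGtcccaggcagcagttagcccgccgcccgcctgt

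The PLK2 window held 2 E2F elements, whose first bases lay 214 and 44 bases before the start. GADD45B held 2 CCAAT boxes, starting 82 and 45 bases before the start. In SFN 1 CCAAT box on the opposite strand lay inside the gene, 13 bases from the start, and none of the motifs was found in the CDKN2B window or in the 2 windows of CDK6. Of all 35116 windows in the table, 11.0% held an E2F element, 34.6% a CCAAT box and 16.4% a CHR element. A match is a description of the letters only.

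Among the 10 measured CDK inhibitors and pocket proteins on the list 1 gene, CDKN2B, passed 1.5-fold, against 2.63% of all genes higher. CDKN2B, the INK4 protein p15 that blocks CDK4 and CDK6, was 2.25-fold higher on average and ranked 79 from the highest gene, but its 2 probe sets differed widely (1.17 ± 1.10, SD). One had centred values of 0.97 in the CD24 shRNA array and -0.97 in the control array, a difference of 1.94 or 3.85-fold. The other, which can match more than 1 transcript and whose dimmer array was placed below 4, differed by 0.39. CDKN2A, which lies beside CDKN2B and encodes the INK4 protein p16 and ARF, averaged 0.12 ± 0.30 (SD, 3 probe sets), with 2 probe sets above 0 and 1 below. The pair of values of the 1 below was shared by 53 probe sets, and without it CDKN2A averaged 0.29. CDKN2D, the INK4 protein p19, lay at 0.07 ± 0.33 (SD, 2 probe sets, 1 on each side of 0).

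The listed CIP/KIP inhibitors, which act on CDK2 complexes, and the pocket proteins, which hold E2F factors inactive, stayed within 1.5-fold. CDKN1A (p21), a CDK inhibitor induced by many stress signals, had a centred value of -0.29 in the CD24 shRNA array, against 0.29 in the control array. Its difference of -0.57 on 1 probe set was 1.49-fold lower and ranked 483 from the lowest. CDKN1B (p27) differed by 0.09 on 1 probe set, and CDKN3, a phosphatase that inactivates CDKs, by 0.09 ± 0.01 (SD, 2 probe sets). RBL2 (p130), the pocket protein of resting cells, lay at -0.55 ± 0.58 (SD, 2 probe sets). Its probe sets were at -0.95, with the dimmer array placed below 4, and at -0.14. RBL1 (p107) averaged -0.11 ± 0.37 (SD, 4 probe sets), RB1 itself 0.00 ± 0.34 and E2F5, a repressor E2F that works with the pocket proteins, -0.03 ± 0.18 (SD, 2 probe sets each). In RBL1, RB1 and E2F5 every probe set above 0 was one placed below 4, and the others were negative. Over the 10 measured inhibitors and pocket proteins the median was 0.04, with 6 above 0 and 4 below.

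Of the 5 G1 genes CDK6 alone passed 1.5-fold, against 2.63% of all genes higher, and only on some of its probe sets. CDK6, the kinase that D-type cyclins activate alongside CDK4, averaged 0.61 ± 0.80 (SD, 7 probe sets), 1.52-fold higher. Of the 7, 3 lay at 1.60, 1.34 and 1.31, between 2.48-fold and 3.04-fold higher, with centred values of 0.66 to 0.80 in the CD24 shRNA array and -0.80 to -0.66 in the control array. The remaining 4 lay between -0.42 and 0.33, and the 2 below 0 were placed below 4. The median over the 7 was 0.33, and the mean without those 2 was 0.96. CDK4, its partner kinase, lay at -0.17 on 1 probe set. The D-type cyclins CCND1 (-0.21 ± 0.28, SD, 2 probe sets), CCND2 (-0.04 ± 0.19, SD, 4 probe sets) and CCND3 (-0.04 ± 0.03, SD, 2 probe sets) each lay closer to 0 than the pooled SD. Of the 4 CCND2 probe sets 3 were placed below 4, and 3 had a pair of values shared by 3 or more probe sets. Of the 2 of CCND3, 1 was placed below 4 and the other had such a shared pair. In CCND1 the probe sets were at -0.41 and -0.01.

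**Figure D2:**
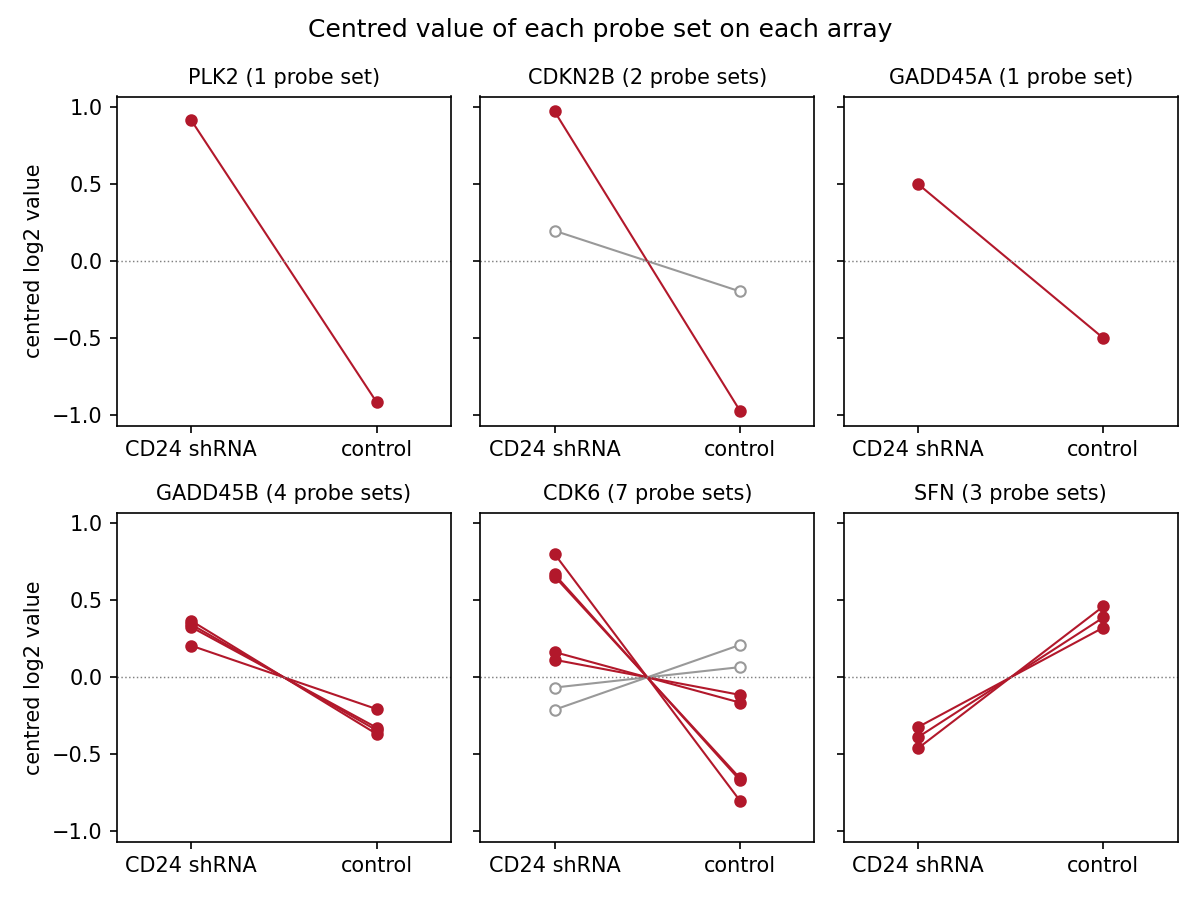
Centred log2 value (vertical axis) of each probe set on the CD24 shRNA array (left of each panel) and the control array (right) for PLK2, CDKN2B, GADD45A, GADD45B, CDK6 and SFN. Each line is 1 probe set, and grey lines with open points are probe sets whose dimmer array was placed below 4; the 3 steep CDK6 lines start between 0.66 and 0.80, and the 3 SFN lines run the other way.

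Genes of the G1/S step and of S phase lay close to 0. None reached 1.5-fold, against 2.63% of all genes higher and 2.38% lower. CDC25A, the phosphatase that removes inhibitory phosphates from CDK2, was the highest at 0.36 ± 0.19 (SD, 3 probe sets), or 1.28-fold, with all 3 probe sets above 0, at 0.58, 0.25 and 0.25. CCNA2 (cyclin A2) averaged 0.18 ± 0.40 (SD, 2 probe sets) on probe sets at 0.46 and -0.11, and CDK2 averaged 0.14 ± 0.08 (SD, 3 probe sets). The E-type cyclins CCNE1 and CCNE2 lay at 0.00 ± 0.17 and 0.11 ± 0.30 (SD, 2 probe sets each). Activator E2Fs, which switch on S-phase genes, differed little, with E2F1 at 0.00 ± 0.12 and E2F3 at 0.09 ± 0.11 (SD, 2 probe sets each), and E2F2 at 0.02 ± 0.17 (SD, 3 probe sets). The atypical repressors E2F7 and E2F8 lay at 0.02 ± 0.39 (SD, 2 probe sets) and -0.04 (1 probe set). Of these 10 genes 9 were within the pooled SD (90.0%, against 76.0% of all genes), and the median was 0.06.

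G2 and mitosis genes gave a similar picture, with a median of 0.10 over 11 genes. No member was at 1.5-fold, against 2.63% of all genes higher and 2.38% lower. CDK1, the mitotic kinase, lay at 0.20 ± 0.06 (SD, 4 probe sets), above 0 on all 4, and CCNB1, its cyclin, at 0.11 ± 0.09 (SD, 2 probe sets). CCNB2 lay at -0.04 ± 0.13 (SD, 3 probe sets) and CCNF, a cyclin that works as part of a ubiquitin ligase, at 0.10 ± 0.16 (SD, 2 probe sets). The phosphatases that switch CDK1 on, CDC25B and CDC25C, lay at 0.28 (1 probe set) and 0.05 ± 0.25 (SD, 3 probe sets), and WEE1, the kinase that switches it off, at 0.17 ± 0.12 (SD, 2 probe sets). The Aurora kinases lay on opposite sides: AURKA, of the centrosome and spindle, at 0.17 ± 0.05 (SD, 3 probe sets) and AURKB, of the chromosomal passenger complex, at -0.38 ± 0.26 (SD, 2 probe sets, -0.56 and -0.20), 1.30-fold lower. The AURKB pair of values behind -0.56 was shared by 3 probe sets, and without it AURKB lay at -0.20, within the pooled SD of 0, as AURKA did. PLK1, the main mitotic polo-like kinase, was at -0.11 (1 probe set) and PLK4, which starts centriole duplication, at -0.04 ± 0.30 (SD, 3 probe sets). Neither of them shared the difference of PLK2.

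Cyclins and CDKs that act mainly on transcription, or that activate other CDKs, had a median of 0.05 over 7 genes. CDK8, a kinase of the Mediator complex, was the highest at 0.43 ± 0.21 (SD, 3 probe sets), 1.35-fold higher with all 3 probe sets above 0, while its cyclin CCNC lay at -0.17 ± 0.30 (SD, 2 probe sets). CCNT1, the cyclin of the elongation factor P-TEFb, was the lowest at -0.24 ± 0.08 (SD, 2 probe sets), and its kinase CDK9 lay at 0.05 ± 0.19 (SD, 3 probe sets). CDK7 and CCNH, of the CDK-activating kinase, differed by 0.16 and -0.15 on 1 probe set each. CDK5, a kinase best known from neurons, differed by 0.05 on 1 probe set.

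Other genes of the cycle, listed by their known roles, had medians near 0 as well. Of 24 measured DNA replication genes 0 were 1.5-fold higher, against 2.63% of all genes, and 1 was 1.5-fold lower, against 2.38%. Their median was -0.04, against 0 over all genes. The lowest were ORC1, of the origin recognition complex (-0.60, 1 probe set, 1.52-fold), CDT1, which loads the MCM helicase (-0.50 ± 0.38, SD, 2 probe sets), and the helicase subunit MCM3 (-0.36, 1 probe set). Of the 24, 18 lay below 0, against 9402 of all 19775 genes. Of 23 mitotic genes 0 passed 1.5-fold in either direction, against the same shares of all genes. In lists this short, counts of 0 or 1 are near those shares. Of the mitotic genes 10 lay above 0 and 13 below, with a median of -0.01. NUSAP1, a spindle protein, lay at -0.57 ± 0.45 (SD, 2 probe sets), KIF23, a kinesin of cytokinesis, at 0.46 ± 0.23 (SD, 2 probe sets) and TOP2A, the topoisomerase of dividing cells, at -0.43 ± 0.26 (SD, 3 probe sets).

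**Figure D3:**
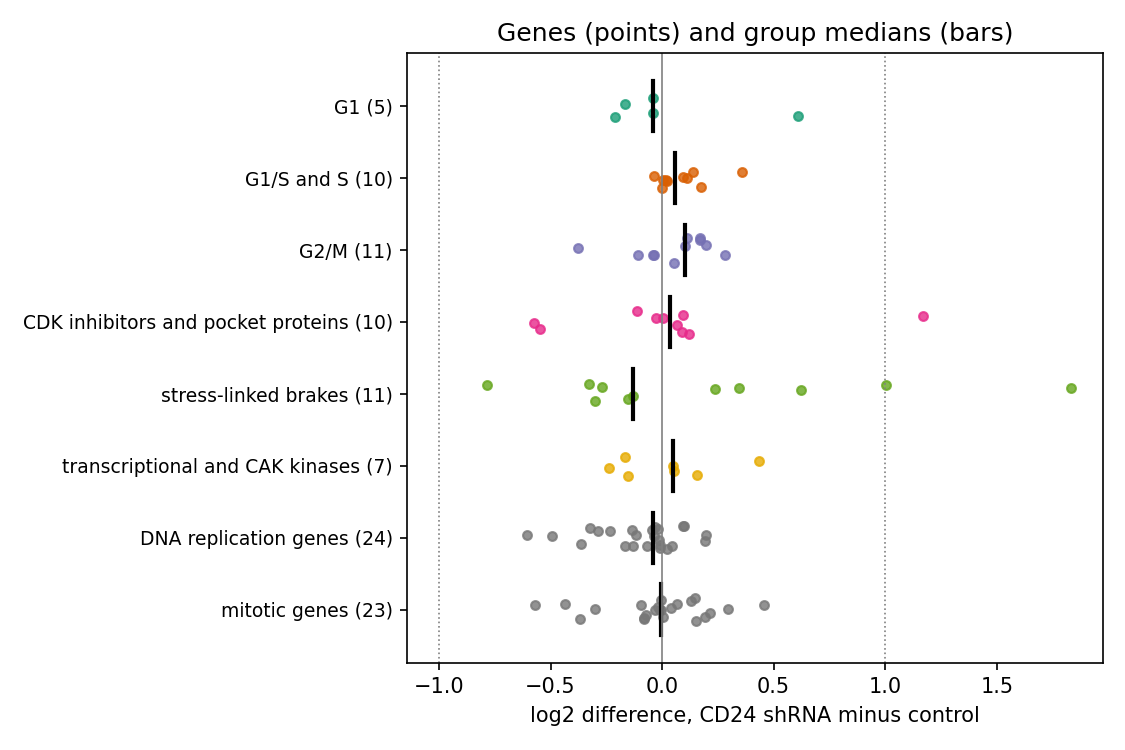
Log2 difference (CD24 shRNA minus control, horizontal axis) of each measured gene (points) in the 6 groups of cell-cycle genes and in 2 lists of other genes (grey), with the number of genes in brackets and the median of each as a black bar; points are spread vertically only to separate them. Dotted lines mark a 2-fold difference; the medians lie between -0.13 (stress-linked brakes) and 0.10 (G2/M).

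The promoter windows of the members, 71 windows of 46 genes, differed by group in the motifs they held. In the windows of G2/M genes 9 of 19 held a CHR element (47.4%), against 16.4% of all windows. In those of G1/S and S genes 5 of 8 held an E2F element (62.5%), against 11.0% of all windows. An E2F element was also in 36.8% of G2/M windows and 28.6% of those of stress-linked brakes. Among stress-linked brakes 11 of 14 windows held a CCAAT box (78.6%), against 34.6% of all. This was not particular to them, as 68.4% of G2/M windows and 62.5% of G1/S and S windows held one. The share was 33.3% in G1 genes, 35.7% in inhibitors and pocket proteins and 20.0% in transcriptional and CAK kinases. Several windows can belong to 1 gene, so these shares are descriptions with no test.

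Markers of other cell types were read only as differences, since levels are not in the table. The defining hepatocyte genes could therefore not be checked for presence. Of 9 hepatocyte markers 6 lay below 0, against 9402 of all 19775 genes, with a median of -0.09. AHSG was 1.92-fold lower and FGB 1.51-fold higher, against 2.38% of all genes 1.5-fold lower and 2.63% 1.5-fold higher. The other 7 stayed within 1.5-fold. Of 8 fibroblast markers 2 were at least 2-fold higher, COL3A1 and LUM, against 0.632% of all genes. The others stayed within 1.5-fold, from -0.18 (THY1) to 0.40 (ACTA2). Over the 8, 6 lay above 0, against 9770 of all 19775 genes, and 2 below, with a median of 0.16. COL3A1 was 5.09-fold higher on average, with its 5 probe sets at 3.78, 3.67, 3.41, 0.77 and 0.11. LUM was 2.18-fold higher on average, with its 2 probe sets at 2.12 and 0.13. The dimmer array was placed below 4 in 4 of 5 COL3A1 probe sets, all but the highest, and in both of LUM. Of 5 endothelial markers 0 passed 1.5-fold, against 2.63% of all genes higher and 2.38% lower. Of 4 leukocyte markers 1 was at least 2-fold lower, LYZ, against 0.485% of all genes. It was 3.21-fold lower on 2 probe sets. CD14 lay at -0.37, CD3E at 0.08 and PTPRC at 0.17, so that 2 of the 4 lay above 0 and 2 below. The pairs of values of CD14 and CD3E, and of 4 of 5 PTPRC probe sets, were shared by 3 or more probe sets. The part of these shifts in the values of the cell-cycle genes was not tested.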

How the data were processed

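RNA of 2 Huh7 cultures, 1 with CD24 shRNA and 1 with the non-target control, was hybridised to 1 Affymetrix array each. The deposited values are log2 values, made by the authors with RMA (robust multi-array average) per the submitters' processing notes, and were already centred on the 2 arrays within each probe set. The 2 values sum to 0 within 1e-06. No version or later step was given in the sources used here. Levels, detection calls and scan data were not used here.

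Of 54675 probe sets, 62 controls were left out, and 41091 named 1 gene in GEO's platform annotation. Log2 differences (CD24 shRNA minus control) were averaged over the probe sets of each gene. This was computed with Python 3.11.15, pandas 2.3.3 and numpy 2.4.6. A gene was counted at a 2-fold or 1.5-fold difference. The digits show that the table was computed in single precision, whose smallest step grows at 4 on the log2 scale. A finer step therefore shows that the dimmer array lay below 4, as in 27 of the 133 member probe sets, and others may be dim too. The calculation was tested on simulated data.

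All 56 members were accounted for. Values were given in full for members past 1.5-fold and for the 3 furthest from 0 in each group, as for up to 3 genes of each other list reported, and CDKN1C, MTAP, CDKN2B-AS1 and DMRTA1 were named after their values were seen. Members and lists were chosen with earlier results of these data known. Promoters came from RefSeq (GRCh38.p14), which held 46 of the members. One further list of genes and 1 further motif are not reported here. The alternatives combined probe sets otherwise, left some out, rescaled the arrays or moved the threshold.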

Additional observations from a re-analysis of the deposited data

How the results depend on the processing

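The 3 members at least 2-fold higher and the 0 lower were counted again with the median over probe sets, the probe set with the largest difference, without probe sets ending in _s_at or _x_at, without those placed below 4, without those whose pair of values recurred in 3 or more, and scaled on 18 hybridisation controls. Centring on the median of all genes changed nothing by construction, since that median is 0. The first count was 4 with the largest probe set, where CDK6 joined at 1.60, and 3 otherwise, and the second stayed 0. At 1.5-fold the counts were 5 higher and 1 lower, and at 3-fold they were 1 and 0. CD24 lay at -1.97 on its largest probe set and had no value without probe sets ending in _s_at or _x_at. The median of all members ran from 0.00 to 0.15, and no group median of members moved by the pooled SD. In 5 of the 6 groups the median took both signs, from -0.17 to 0.07 in G1 genes, -0.03 to 0.21 in G2/M genes, -0.16 to 0.15 in inhibitors and pocket proteins, -0.15 to 0.04 in stress-linked brakes and -0.15 to 0.16 in transcriptional and CAK kinases. Those ranges include the exchange of CDKN3 and WEE1 between groups and the constant 0.11 of scaling. In G1 genes the median was above 0 only with that scaling, which adds the same 0.11 to the median of all genes. Of 202 values recomputed from other probe sets, for members with several, 18 moved by more than the pooled SD. CDKN2B then lay at 1.94, and RBL2 at -0.14 without probe sets placed below 4. The cause was not tested. No paired analysis was possible because each group had 1 array. Leaving out recurring pairs was chosen after seeing the data.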

Other observations

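CDKN1C (p57), the third CIP/KIP inhibitor and not among the listed members, was 1.72-fold higher with CD24 shRNA (0.78 ± 0.55, SD, 5 probe sets). Of its probe sets 4 lay between 0.93 and 1.24 and the fifth at -0.17, and 3 of those 4 can match more than 1 transcript. In 1 of the 5 the pair of values was shared by 3 or more probe sets, and without it CDKN1C averaged 1.02. The CIP/KIP genes therefore differed in direction on this pair of arrays, with CDKN1C at 0.78, CDKN1B at 0.09 and CDKN1A at -0.57.

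Near CDKN2A and CDKN2B in the genome lies MTAP, a methionine salvage enzyme gene, which was 1.68-fold lower (-0.75 ± 0.58, SD, 6 probe sets). Its probe sets split, with 4 of them at -1.05 or lower and 1 each at -0.20 and 0.17. In 4 of the 6 the dimmer array was placed below 4. CDKN2B-AS1, the antisense RNA of the locus, differed by 0.10 on 1 probe set placed below 4, and DMRTA1, the neighbour on the far side, was tied between the arrays on 1 probe set. CDKN2B at 1.17, CDKN2A at 0.12 and MTAP at -0.75 thus lay on both sides of 0 within 1 stretch of the genome. MTAP and its neighbours were looked up with their values in view.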
